A study of Mus musculus with 15 samples.

Results

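The constitutive proteasome subunit genes were examined in colon scrapings of mice fed heme. A gene was a member if its only symbol in the array annotation began with Psma, Psmb, Psmc, Psmd, Psmf or Psmg, with the interferon-induced subunits Psmb8, Psmb9 and Psmb10 left out, and 42 of the 18194 genes on the array met this rule. The mice were male C57BL/6 animals, 11 weeks old, on a high-fat diet low in calcium with 40% of its energy as fat. For 14 days 6 control mice ate this diet without heme and 9 heme mice ate it with 0.5 umol heme per g, heme being the iron-porphyrin pigment of red meat. Each mouse was put on its own Affymetrix expression array, so replicates are animals, and no animals were pooled. Control replicate 5 was not analysed here. Values are log2 expression per probe set, each gene is read from the 1 probe set whose mean over the 15 arrays is highest, and differences are heme minus control from limma with Benjamini-Hochberg adjustment over all tested genes. Group means are given ± SD with n = 6 and 9, and differences ± SE. Precision is limited by the number of arrays.

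The proteasome is the protease that degrades most short-lived and damaged proteins of the cytosol and nucleus. Its barrel-shaped core particle is a stack of rings, with outer alpha rings that gate the entrance and inner beta rings that carry the active sites. A cap on the end of the barrel, made of a base with an ATPase ring and a lid, binds ubiquitin-tagged proteins, removes the ubiquitin and threads the chain into the core. Dedicated chaperones assist the assembly of core and cap, and cells with too little proteasome activity are known to raise the subunit genes together through the transcription factor Nfe2l1. In the colon the epithelium renews itself within days, and it is the main cell layer taken by scraping.

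Nearly all proteasome genes were modestly higher in heme mice. Of the 42 members 38 were over the signal floor and tested, and 36 of them rose, 94.7%, while 0 fell (limma, 0 also at an unadjusted p under 0.05) and 2 had no call. Among all 9257 tested genes 27.2% rose and 26.4% fell, 53.6% in all, so that a call as such was common but calls in 1 direction made up a share far from that of the whole array. The median log2 fold change of the tested members was 0.36, beside -0.01 over all tested genes. The rises that were called ran from 0.18 for the ATPase Psmc6 (1.13-fold) to 0.62 for the lid deubiquitinase Psmd14 (1.53-fold). Changes of at least 2-fold were absent among the 38 members, and 519 of all tested genes had one, whatever their p. All 9 heme mice lay above all 6 controls for 22 of the 38 members, against 11.2% of all tested genes, and below all controls for 0, against 8.93%. All 38 were over the floor on all 15 arrays, so no member was tested only because it was high in 1 group. In these bulk scrapings more RNA of a gene per cell cannot be told apart from more cells of a type that expresses it.

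**Figure D1:**
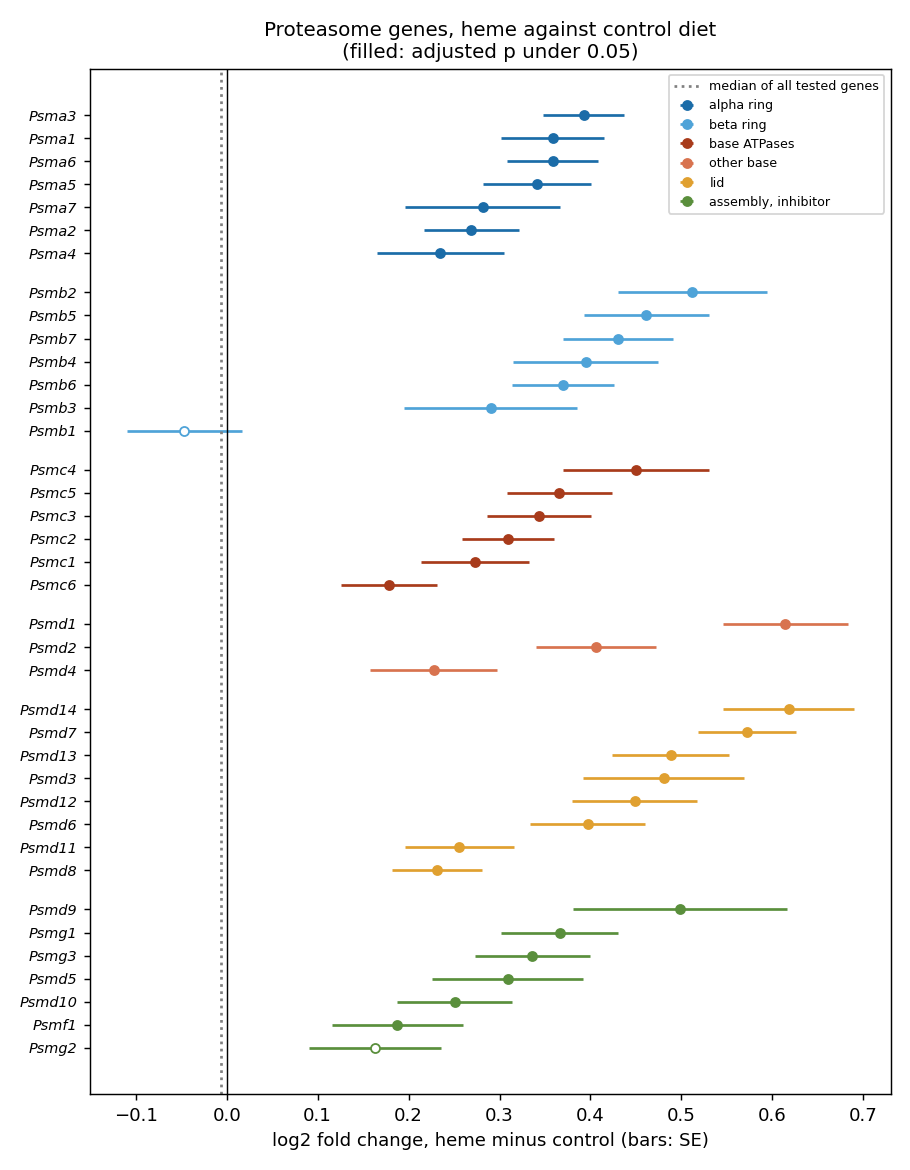
Log2 fold change of the 38 tested proteasome genes, heme minus control, with SE bars, sorted within the parts of the complex and coloured by part. Filled points passed an adjusted p of 0.05 in limma, open points did not, and the dotted line is the median of all 9257 tested genes. Every point but Psmb1 lies to the right of 0.

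**Figure D2:**
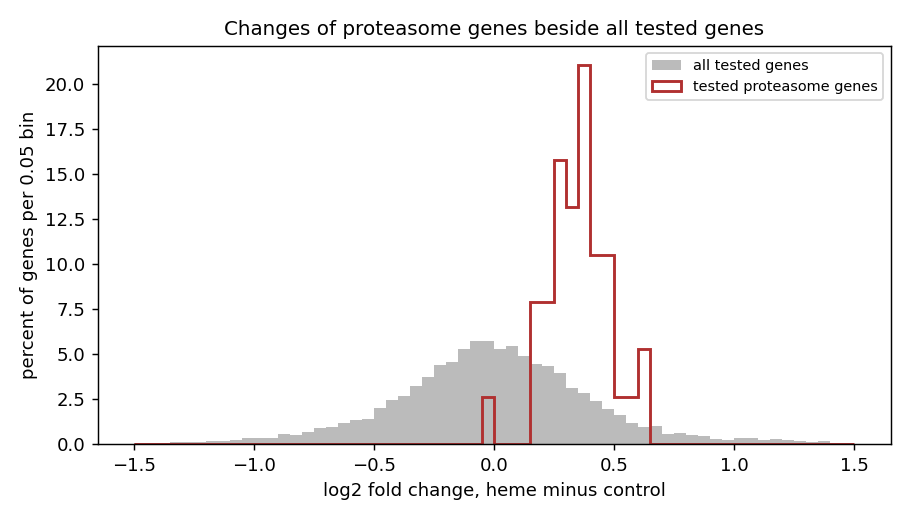
Share of genes, in percent per bin of 0.05, against the log2 fold change, heme minus control, for all tested genes (grey) and for the 38 tested proteasome genes (red outline). The axis leaves out 177 of all tested genes beyond 1.5 in either direction. The red outline is narrow and lies to the right of the centre of the grey distribution, with Psmb1 as the bin just below 0.

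In the core particle 13 of 14 tested genes rose, with a median of 0.36. All 3 subunits that carry the active sites were among them. Psmb5, which cuts after hydrophobic residues, had a lowest, median and highest value of 10.61, 10.72 and 10.86 in control mice and 10.98, 11.20 and 11.43 in heme mice. The groups did not overlap, and the difference was 0.46 ± 0.07 (adjusted p = 5.34e-05, limma). Psmb7, the trypsin-like subunit, ran over 11.05, 11.14 and 11.38 in controls and 11.41, 11.61 and 11.74 in heme mice. Its groups were also separate, though narrowly, with a difference of 0.43 ± 0.06 (adjusted p = 3.33e-05). For Psmb6, the caspase-like subunit, the corresponding values were 10.91, 11.01 and 11.14 in controls and 11.28, 11.38 and 11.55 in heme mice. Every heme mouse again exceeded every control, by 0.37 ± 0.06 on average (adjusted p = 6.62e-05).

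The beta subunits without an active site differed more among themselves. Psmb2 showed the largest rise of the core particle. Its lowest, median and highest values were 8.84, 9.06 and 9.38 in controls and 9.44, 9.62 and 9.84 in heme mice, without overlap (0.51 ± 0.08, adjusted p = 1.04e-04, limma). Psmb4 (0.39 ± 0.08) and Psmb3 (0.29 ± 0.09) rose as well, with 8 and 7 of 9 heme mice above all controls. Psmb1 was the only core gene without a call. Control mice had 11.28, 11.50 and 11.59 as lowest, median and highest values of Psmb1, and heme mice 11.30, 11.40 and 11.58. The ranges coincide almost fully, and the difference was -0.05 ± 0.06 (adjusted p = 0.557). A p above the threshold does not show that Psmb1 was equal in the groups. Its remaining 2 probe sets were under the floor on all arrays, so this reading rests on 1 probe set.

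The 7 tested alpha ring genes all rose, within a narrow band from 0.23 to 0.39. Psma3 rose most. It had values of 11.87, 11.96 and 12.07 (lowest, median, highest) in controls and 12.27, 12.37 and 12.41 in heme mice, where it varied little from mouse to mouse (SD 0.04). The difference was 0.39 ± 0.04 (adjusted p = 4.28e-06, limma). Psma1 rose from 11.54 ± 0.13 to 11.90 ± 0.06 (SD), with controls between 11.43 and 11.78 around a median of 11.50 and heme mice between 11.80 and 12.01 around 11.88. Control mouse 3 was the highest control and lay just under the lowest heme mouse. Psma4 had the smallest change of the ring. Controls ran over 11.00, 11.16 and 11.26 and heme mice over 11.24, 11.35 and 11.70, with 1 heme mouse inside the control range (0.23 ± 0.07, adjusted p = 0.0103). For Psma6 (0.36 ± 0.05), Psma5 (0.34 ± 0.06), Psma7 (0.28 ± 0.08) and Psma2 (0.27 ± 0.05) between 7 and 9 heme mice lay above all controls. With the mean of the smooth muscle markers as a covariate 10 of 14 core genes rose. Psma4 (0.17, adjusted p = 0.216, limma), Psma7 (0.21, adjusted p = 0.218) and Psmb3 (0.30, adjusted p = 0.130) lost their call. Whether more calls were lost here than over the whole array was not tested.

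**Figure D3:**
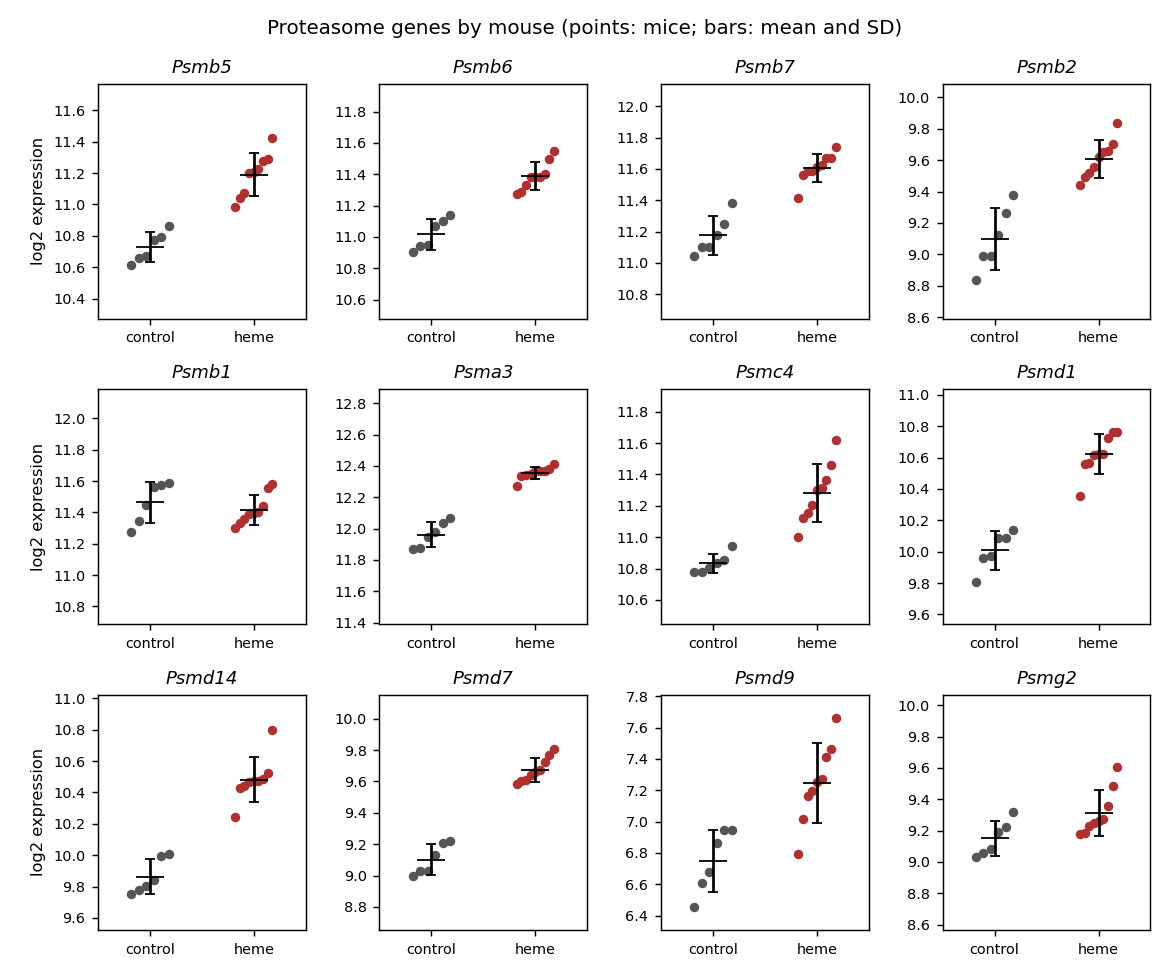
Log2 expression of 12 proteasome genes in each mouse, controls in grey and heme mice in red, with the mean and SD as bars. Each panel spans the same 1.5 log2 units but is centred on its own gene, so slopes can be compared and heights cannot. Psmb1 and Psmg2 overlap between the groups, Psmd9 does so in 1 heme mouse, and the other 9 genes are separate.

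All 17 cap genes rose, with a median of 0.40, and 14 of them without overlap between the groups. In the base the scaffold subunit Psmd1 rose from 9.81, 10.03 and 10.14 (lowest, median, highest control) to 10.36, 10.62 and 10.77 in heme mice. The gap between the groups was wide beside their spread, and the difference was 0.61 ± 0.07 (adjusted p = 3.96e-06, limma). Psmd2, the base subunit on which shuttle proteins dock, ran over 10.24, 10.34 and 10.51 in controls and 10.55, 10.75 and 10.93 in heme mice (0.41 ± 0.07). The groups were separate by a small margin. Psmd4, a ubiquitin receptor, changed less. Its values were 10.62, 10.81 and 10.95 in controls and 10.82, 11.03 and 11.15 in heme mice, where 3 of 9 overlapped with controls (0.23 ± 0.07, adjusted p = 0.0119).

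The 6 ATPases that form the unfolding ring of the base rose by 0.18 to 0.45. Psmc4 had controls close together at 10.78, 10.82 and 10.94 and heme mice spread over 11.00, 11.30 and 11.62 (0.45 ± 0.08, adjusted p = 2.63e-04, limma). All heme mice were higher, heme mouse 4 by little and heme mouse 1 by most. Psmc5 ran over 9.98, 10.13 and 10.21 in controls and 10.33, 10.47 and 10.65 in heme mice, without overlap (0.37 ± 0.06). Psmc3 (0.34 ± 0.06), Psmc2 (0.31 ± 0.05) and Psmc1 (0.27 ± 0.06) were separate in all mice as well. Psmc6, the least changed, had 10.54, 10.67 and 10.79 in controls and 10.74, 10.83 and 10.98 in heme mice (0.18 ± 0.05, adjusted p = 0.00953), with 2 heme mice inside the control range.

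The lid had the highest median of the parts, 0.46 over 8 genes. Psmd14, the enzyme that cuts ubiquitin chains off the substrate, had controls at 9.75, 9.82 and 10.01 and heme mice at 10.24, 10.47 and 10.80 (0.62 ± 0.07, adjusted p = 5.69e-06, limma). Psmd7, its partner in the lid, had controls at 9.00, 9.08 and 9.22 and heme mice at 9.58, 9.66 and 9.81 (0.57 ± 0.05, adjusted p = 6.78e-07). For both the lowest heme mouse stood clearly above the highest control, and Psmd7 had the lowest adjusted p of the members. The structural lid subunits Psmd13 (0.49 ± 0.06), Psmd3 (0.48 ± 0.09), Psmd12 (0.45 ± 0.07) and Psmd6 (0.40 ± 0.06) were separate in all 9 heme mice. Psmd11 (0.26 ± 0.06) was so in 8. The smallest change was that of Psmd8, with 10.79, 10.89 and 11.04 in controls and 11.05, 11.14 and 11.20 in heme mice, which were just separate (0.23 ± 0.05, adjusted p = 0.00113). Whether cap genes rose more than core genes was not tested. With the mean of the smooth muscle markers as a covariate 13 of 17 cap genes rose. Psmd11 (0.19, adjusted p = 0.121, limma), Psmd8 (0.12, adjusted p = 0.171), Psmd4 (0.12, adjusted p = 0.371) and Psmc6 (0.09, adjusted p = 0.354) were not called. This loss of calls was likewise not set against that over the whole array.

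No motif searched just before the gene start was held by most of the members with a promoter sequence. RefSeq promoter sequences (GRCm38.p6) were matched by symbol for 34 of the 42 members, and the 250 bases before the gene start were searched on both strands. The motifs were chosen after their counts had been seen. The hexamer CCGGAA, a core bound by ETS-family transcription factors, was in 16 of the 34 members (47.1%), in 13.6% of all 27025 genes in the table and in 27.2% of the tested genes. TGANNNNGC, the core of the antioxidant response element at which Nfe2l1 and Nfe2l2 bind, was in 15 of 34 (44.1%), against 38.7% of all genes and 42% of tested genes. Its narrower form TGACNNNGC was in 5 (14.7%), against 11.5% and 14.2%. The CCAAT box was in 13 (38.2%), against 37.5% and 40.4%, and the TATA box TATAAA in 3 (8.82%), against 14.3% and 8.27%. The median GC content of the window was 56.2% in members, 52% in all genes and 60% in tested genes. The 34 members include untested ones, so their shares are not fully like those of tested genes. Untested Psmc3ip, which is no subunit, holds both CCGGAA and TGANNNNGC, and untested Psmb11 and Psmg4 hold TGANNNNGC. Among the tested members alone 12 hold TGANNNNGC and 19 do not, a share under the 42% of tested genes. The median log2 fold change was 0.34 for the 15 tested members with CCGGAA and 0.36 for the 16 without. It was 0.36 for the 12 with TGANNNNGC and 0.34 for the 19 without, and 0.45 for the 5 with TGACNNNGC and 0.34 for the 26 without. These differences were not tested. A match is only a run of letters and was not tested for binding. Below are the promoters of Psmd14, the member with the largest rise, of Psmd13 and Psmd12, and of the catalytic Psmb5. Psmd13 and Psmd12 rose most among the members with a matched promoter that holds CCGGAA. Psmd7, Psmb2 and Psmd3 rose more than Psmd12 but had no matched promoter. Capitals mark CCGGAA or its complement and TGANNNNGC or its complement.
Psmd14, chr2:61711444-61711693, + strand: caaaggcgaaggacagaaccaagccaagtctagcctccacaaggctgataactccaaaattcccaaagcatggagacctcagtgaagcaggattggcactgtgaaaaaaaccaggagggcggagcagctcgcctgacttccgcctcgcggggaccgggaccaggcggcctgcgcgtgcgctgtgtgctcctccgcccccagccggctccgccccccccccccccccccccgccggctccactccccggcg
Psmd13, chr7:140882144-140882393, + strand: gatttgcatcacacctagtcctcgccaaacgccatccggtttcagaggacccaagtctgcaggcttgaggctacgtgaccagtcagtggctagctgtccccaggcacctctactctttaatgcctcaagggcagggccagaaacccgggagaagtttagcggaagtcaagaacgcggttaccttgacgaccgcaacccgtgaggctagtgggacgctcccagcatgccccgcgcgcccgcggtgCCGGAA
Psmd12, chr11:107479278-107479527, + strand: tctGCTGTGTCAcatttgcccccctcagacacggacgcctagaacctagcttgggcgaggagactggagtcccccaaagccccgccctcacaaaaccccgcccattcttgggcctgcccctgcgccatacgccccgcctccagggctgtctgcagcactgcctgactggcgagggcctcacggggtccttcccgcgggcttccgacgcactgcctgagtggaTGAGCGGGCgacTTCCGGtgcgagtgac
Psmb5, chr14:54617996-54618245, - strand: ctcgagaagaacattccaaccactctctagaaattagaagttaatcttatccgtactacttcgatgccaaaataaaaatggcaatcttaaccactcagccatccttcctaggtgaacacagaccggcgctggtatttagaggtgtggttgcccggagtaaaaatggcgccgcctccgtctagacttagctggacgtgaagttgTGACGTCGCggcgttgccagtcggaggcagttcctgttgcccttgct
The hexamer begins 6 bases before the gene start in Psmd13 and, on the opposite strand, 16 bases before it in Psmd12. In Psmb5 the antioxidant-type core begins 47 bases before the start. Psmd14 has no capitals, since its window holds neither motif.

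Among the assembly chaperones and the inhibitor 6 of 7 tested genes rose, with a median of 0.31, and the groups overlapped in most. Psmd9, which helps to build the ATPase ring, had controls at 6.46, 6.77 and 6.94 (lowest, median, highest) and heme mice at 6.79, 7.25 and 7.66 (0.50 ± 0.12, adjusted p = 0.00219, limma). Only heme mouse 9 lay inside the control range. Psmg1, a chaperone of the alpha ring, ran over 8.61, 8.78 and 9.01 in controls and 9.01, 9.14 and 9.28 in heme mice (0.37 ± 0.06). Here 8 of 9 heme mice exceeded all controls. Psmg3 (0.34 ± 0.06) was the only assembly gene without overlap, and Psmd5 (0.31 ± 0.08) and Psmd10 (0.25 ± 0.06) were above all controls in 5 and 6 heme mice. Psmg2, the partner of Psmg1, was not called, with 9.03, 9.14 and 9.32 in controls and 9.18, 9.26 and 9.61 in heme mice (0.16 ± 0.07, adjusted p = 0.0682). Without control mouse 7, the highest control, it was called (0.20, adjusted p = 0.0402), as it was with median centring (0.20, adjusted p = 0.0340).

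Psmf1, which binds the core and blocks it in the test tube, was called on the 1 probe set that was tested. Its difference was 0.19 ± 0.07 (adjusted p = 0.0382, limma), and 2 of 9 heme mice were above all controls. Another 2 Psmf1 probe sets over the floor had differences of -0.11 and -0.27, and omitting any 1 of control mice 1, 2, 3 and 7 or of heme mice 1, 2, 3, 4, 5 and 7 ended the call, at differences between 0.16 and 0.19. In all, 18 members had more than 1 probe set over the floor, and in 15 of them these moved in 1 direction. The exceptions beside Psmf1 were Psmd13, where 1 of 3 probe sets was at -0.33, and Psmd9, where the second was at -0.43 and over the floor on 7 arrays. When all probe sets of each gene were averaged, Psmd9 was at 0.06 (adjusted p = 0.613) and no longer called. That average includes a further Psmd9 probe set that was under the floor on all arrays.

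The remaining 4 members were not tested. Psma8, known as a testis form of an alpha subunit, Psmb11, the thymus-specific beta subunit, and the chaperone Psmg4 were under the floor on all 15 arrays. Psmc3ip shares the start of its name but is a factor of meiotic recombination and no subunit. It was over the floor on 1 array only, that of heme mouse 8 at 4.82, with the other mice between 3.19 and 4.15.

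The mice of a group differed by a shift shared by many members. Averaged over the 38 tested genes, controls ran from 10.05 to 10.23 and heme mice from 10.38 to 10.62, so the groups were separate on this mean. Heme mouse 8 was the highest heme mouse for 20 members, while heme mice 9 and 6 were the lowest for 14 and 12. Correspondingly, heme mice 6 and 9 lay above all controls for 28 members each, and the other heme mice for 34 or 35. Among controls, mice 3 and 4 were the highest for 17 and 15 members, and mice 7 and 2 the lowest for 19 and 10. The same order held only in part within the complex. Heme mouse 8 was the highest and heme mouse 6 the lowest for both the core mean (11.54 and 11.34) and the cap mean (10.79 and 10.50). Heme mouse 9 was low for the core mean (11.35) but near the heme group mean for the cap (10.64 beside 10.65). For the assembly and inhibitor genes heme mouse 9 was the lowest heme mouse (8.15).

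**Figure D4:**
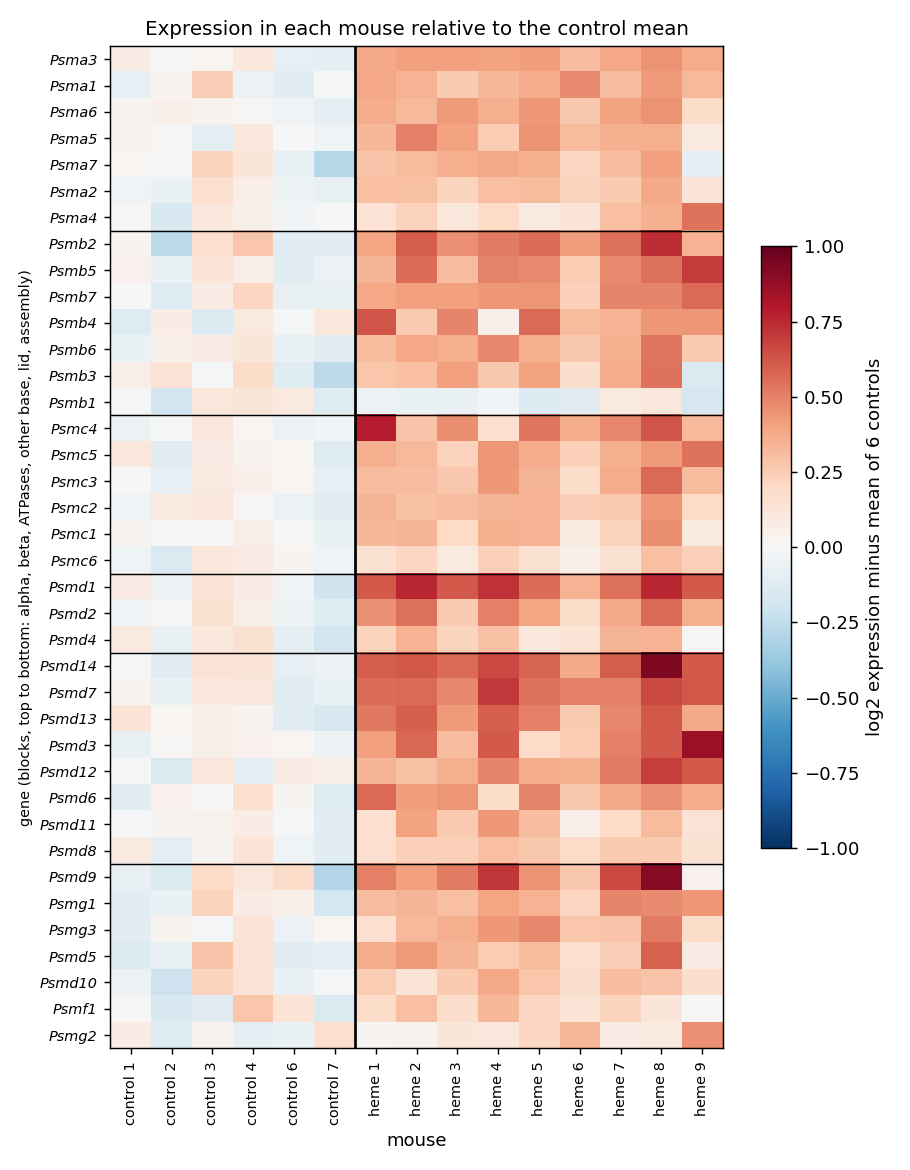
Log2 expression of the 38 tested proteasome genes (rows) in each mouse (columns) minus the mean of the 6 controls, in red where higher and blue where lower. Columns of heme mice are red in nearly all rows. The Psmb1 row is pale throughout, and heme mice 6 and 9 exceed all controls in 28 rows each, fewer than the other heme mice.

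Other genes of the ubiquitin-proteasome pathway did not move as a block. Of 31 tested genes outside the rule 10 rose (32.3%, against 27.2% of all tested genes). A further 4 fell (12.9%, against 26.4%), and 17 had no call. The share that rose was thus near that of the whole array. Their median was 0.09. Those that rose most act directly on the proteasome. Usp14, a deubiquitinase bound to the cap, went from 9.11, 9.16 and 9.22 in controls to 9.53, 9.71 and 9.92 in heme mice (0.55 ± 0.05, adjusted p = 8.12e-07, limma), and its companion enzyme Uchl5 rose by 0.48 ± 0.05. Psme3, a nuclear activator that binds the core in place of the cap, rose by 0.52 ± 0.13. All 3 were separate in all mice. The assembly factor Pomp rose by 0.35 ± 0.07, and so did Vcp (0.35 ± 0.06), the segregase that delivers substrates, with its cofactors Nploc4 and Ufd1. The transcription factors Nfe2l2 (-0.33 ± 0.08) and Nfe2l1 (-0.27 ± 0.08) fell at the level of RNA. All 12 tested Nfe2l2 target genes rose, beside 27.2% of all tested genes. Their mean ran from 8.50 to 8.90 over the control mice and from 10.58 to 11.26 over the heme mice. This count and mean include Hmox1, which was over the floor in heme mice alone (highest control 3.87). Hmox1 was thus tested only because it was high with heme. The part of these factors and targets in the proteasome genes was not tested.

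The immunoproteasome subunits, which take the place of the 3 catalytic beta subunits after interferon, had the opposite sign. Psmb8 fell by 1.91 ± 0.49 and Psmb10 by 0.47 ± 0.10, whereas Psmb9 was at -0.76 ± 0.37 and not called (adjusted p = 0.0932, limma). In 8 of 9 heme mice each lay below all controls, and heme mouse 6 was above all controls in each, reaching 9.59 for Psmb8.

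**Figure D5:**
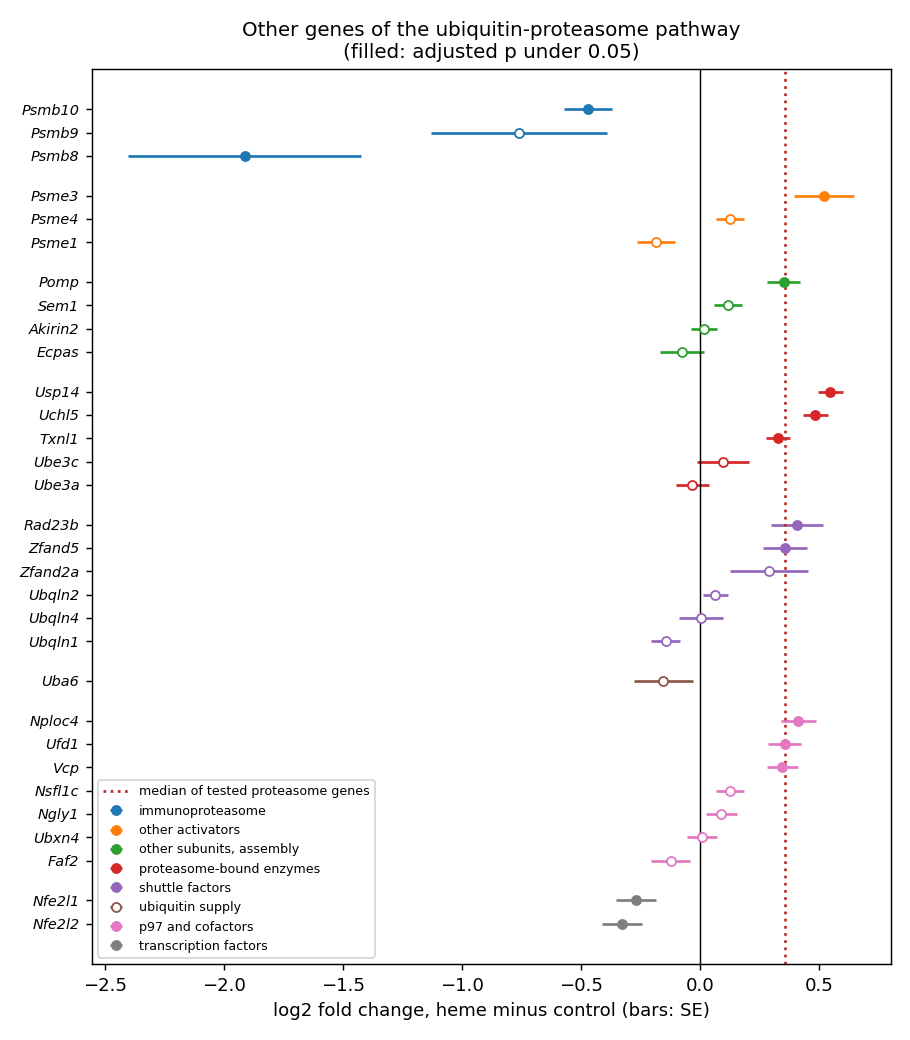
Log2 fold change, heme minus control, with SE bars, of 31 tested genes of the pathway outside the rule, coloured by role. Filled points passed an adjusted p of 0.05 in limma, and the dotted line is the median of the 38 tested proteasome genes, 0.36. The immunoproteasome genes lie far to the left, and filled points near the dotted line are mostly enzymes, shuttles and Vcp cofactors.

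Smooth muscle markers and mitosis genes moved with the groups, and markers of other cells did so in part or not at all. All 10 epithelial markers were tested, 3 rose and 1 fell, and their mean was 12.49 to 12.67 in controls and 12.57 to 12.73 in heme mice. Of 8 smooth muscle markers 4 were tested and all 4 fell, beside 26.4% of all tested genes. Their mean was 6.08 to 9.76 in controls and 4.88 to 6.62 in heme mice. Of these, Actg2 was over the floor on 9 arrays, among them all controls (lowest 4.57), and was tested only because it was high there. Cnn1 was over the floor on 4 arrays and not tested, and Des, Smtn and Lmod1 were so on at most 1. Of 9 immune markers 2 were tested and Ptprc fell, with a mean of 7.68 to 9.85 in controls and 7.03 to 8.56 in heme mice. Of 7 tested stromal markers 0 were called (limma, 0 also at an unadjusted p under 0.05), and no endothelial or enteric neuron and glia marker was tested. All 19 tested mitosis genes rose, beside 27.2% of all tested genes, with a mean of 6.93 to 8.09 in controls and 8.38 to 8.87 in heme mice. Of these, Ttk was over the floor on 12 arrays, among them all heme mice, and was tested only because it was high there. The part of the mitosis genes in the result was not tested. With the smooth muscle mean as a covariate 25 of 38 members rose and 0 fell, with a median of 0.33. Of the assembly and inhibitor genes 2 of 7 rose in this fit. The covariate itself differed between the groups (mean 7.58 in controls, 5.65 in heme mice), so it cannot be fully told apart from the diet. Calls also varied over the whole array. The lower count of members with this covariate is therefore not shown to be particular to proteasome genes. Rises among all tested genes numbered 2516 of 9257 in the main fit and 1766 in the lowest of the alternative settings. Without control mice 2 and 4 and heme mouse 6, which stand apart in stromal, distal colon and interferon-induced transcripts, 36 members rose and 0 fell.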

How the data were processed

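The authors deposited log2 values for each probe set, 1 array per mouse. Per the submitters' processing notes they used GCRMA 2.22.0, which corrects background, normalizes between arrays and summarises probes, and nothing more is stated. The array annotation gave 1 gene symbol for 34958 probe sets and several for 932, and did not list 9211. Genes were read from the first kind alone.

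The test covered the 9257 of 18194 genes whose signal exceeded a floor of 20 (4.32 on the log2 scale) in 6 or more mice. It used lmFit and eBayes of limma 3.58.1 (R 4.3.3) with Benjamini-Hochberg adjustment over these genes and a threshold of 0.05. The procedure was tested on simulated data. Members, gene lists and tests were chosen with earlier results of these data known. Single-mouse values are given for the catalytic subunits, the 2 largest called changes and the smallest change of each class. Genes beyond that rule, such as Pomp, Vcp and the members given with a fold change alone, were chosen after their values were seen. No genome was used, and positions are those of the RefSeq promoter table. Alternatives covered filtering, probe sets, normalization, variance, array weights, the replicate number, array number and leaving out mice. Leaving out several mice and the marker covariates were added after the data were seen.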

Additional observations from a re-analysis of the deposited data

Results flagged for a closer look

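In 4 of 84 groups of values, those of the 38 tested members and 4 means of members in control and in heme mice, 1 mouse stood far from the rest of its group, and chance flags about 5% of groups. Control mouse 3 was high for Psma1 at 11.78, with the next control at 11.56. Heme mouse 9 was low for Psma7 at 10.27, with the next heme mouse at 10.57. Heme mouse 6 was low for Psmd1 at 10.36, with the next at 10.56, and heme mouse 8 was high for Psmd14 at 10.80, with the next at 10.52.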

How the results depend on the processing

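Over 29 alternative settings 11 of the 36 called members lost their call in at least 1, and 25 kept it wherever they were tested. Among these Psmg3 was not tested at a floor of 100. The count of members that rose ran from 35 to 36 when 1 mouse was left out and that of members that fell was 0 in every setting. The smallest count was 25, with the smooth muscle covariate, where also 2 rather than 6 assembly and inhibitor genes rose. Rises among all tested genes ran from 1766 to 2898 over the settings, which include other filters, beside 2516 in the main fit. When all probe sets of each gene were averaged, 34 members rose, the median of members was 0.29 instead of 0.36, Psmb1 was at 0.13 and Psmf1 at -0.088. These averages include probe sets under the floor, among them the remaining 2 of Psmb1, which was not called (adjusted p = 0.109, limma). Median centring gave a median of members of 0.39 and quantile normalization 0.32. The replicate number was not taken as a pairing in the main fit. Correlations of same-numbered mice ran from -0.19 to 0.20, and 1 of 6 controls correlated best with its own number. Such correlations cannot show whether the mice were paired in the experiment. With the replicate block 34 members rose, Psma4 and Psmc6 lost their call, and 2 rather than 4 other pathway genes fell. Without control mice 2 and 4 and heme mouse 6 the other pathway genes that fell numbered 7. The causes were not tested. Of the untested members Psmc3ip was over the signal floor on 1 array and the others on 0.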

Other observations

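Heme mouse 9 was at both ends of its group, the lowest heme mouse for 14 of the 38 tested members and the highest for 6. It was lowest for Psma7 (10.27), Psmb3 (10.90) and Psmd9 (6.79), within the control range in each. It was highest for Psma4 (11.70), Psmb5 (11.43), Psmd3 (9.72) and Psmg2 (9.61). These genes were chosen after their values were seen.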
